A study of Homo sapiens with 24 samples.

Results

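To ask what an androgen does to open chromatin while its receptor is blocked, 2 groups of parental LNCaP cells were compared: cells given dihydrotestosterone (DHT) together with enzalutamide (DHT+ENZ) and cells given enzalutamide alone (ENZ). The comparison comprised the 3 libraries labelled with both agents and the 3 labelled with ENZ, 6 of the 24 libraries of the series. The assay was FAIRE-seq: chromatin is fixed with formaldehyde, fragmented and phenol-extracted, and the DNA recovered from the aqueous phase, which is poor in nucleosomes, is sequenced. All parental cells had first spent 3 days in RPMI with 5% DCC (charcoal-stripped) serum, which is low in steroids. They were then given 10 nM DHT with 10 µM enzalutamide, or 10 µM enzalutamide, for 18 h. The other parental groups, DMSO (the solvent) and 10 nM DHT, and the same 4 treatments in RES-A, a derivative of LNCaP selected for resistance to enzalutamide and precultured with 10 µM of it, had 3 libraries each and served to describe the regions found. The study's methods state that triplicates were biological. LNCaP is an established human prostate cancer line, and a bulk library cannot tell a region that is less open in every cell from one that is open in fewer cells. Its identity was not checked against marker genes, because no annotation of the build of these lists was used and regions are named by position in hg19.

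The androgen receptor is a transcription factor that is activated by DHT, moves to the nucleus and binds regulatory DNA, where nucleosomes are often displaced. Enzalutamide competes with androgen for the ligand-binding domain and impairs the nuclear entry and DNA binding of the receptor. LNCaP cells depend on this receptor for growth and carry a substituted form of it with a broadened ligand specificity.

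Among the most enriched regions, more were called with DHT+ENZ only than with ENZ only, but how many more depended on which libraries were used. Each library was represented by its 50000 peaks with the highest −log10 p, and peaks that overlapped by at least 1 bp were merged into 85235 regions. Of these, 922 (1.08%) were called in 3 of 3 DHT+ENZ libraries and 0 of 3 ENZ libraries, and 265 (0.311%) showed the opposite pattern. The imbalance was smaller without ENZ replicate 1, a shallow library: 1248 regions (1.46%) were then called with DHT+ENZ only and 1019 (1.2%) with ENZ only. When all deposited peaks were used, the counts were 2554 and 202 with this library and 2699 and 4836 without it, so that the larger count changed side. Without this library the rule was unequal. ENZ only needed a call in both remaining ENZ libraries, while DHT+ENZ only still needed 3 of 3. Under the same unequal rule, leaving out ENZ replicate 2 gave 1856 and 818 regions, and leaving out ENZ replicate 3 gave 1875 and 763. Fewer calls thus sufficed for ENZ only, so the balance of these counts does not give a direction of the effect.

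ENZ replicate 1 stood apart from the other 5 libraries. It held 73254 peaks, against 198464 to 256014 in the others. Its genome-wide background, a measure of relative depth, was 0.41 reads per base, against 3.29 to 5.70. The 50000 top-ranked peaks were 68.3% of its list and 19.5% to 25.2% of the other lists, so they reached down to a −log10 p of 5.35 in this library and of 15.3 to 21.8 elsewhere. By itself it called 15733 regions that no other library called, 32.1% of its regions, while the other libraries called 2.82% to 5.28% of theirs alone. The share of bases that its top-ranked peaks had in common with another library (Jaccard index) was 0.248 ± 0.010 (SD, 5 pairs). Among the remaining libraries the index was 0.607 ± 0.0077 (SD, 3 pairs) within DHT+ENZ, 0.629 for ENZ replicates 2 and 3, and 0.603 ± 0.018 (SD, 6 pairs) between the groups. Over the 6 libraries, the treatment had an R2 of 0.210 in PERMANOVA on 1 minus the index (exact permutation p = 0.2; the smallest p possible is 0.1), so a difference in overall similarity was not detectable with 3 libraries a group.

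**Figure D1:**
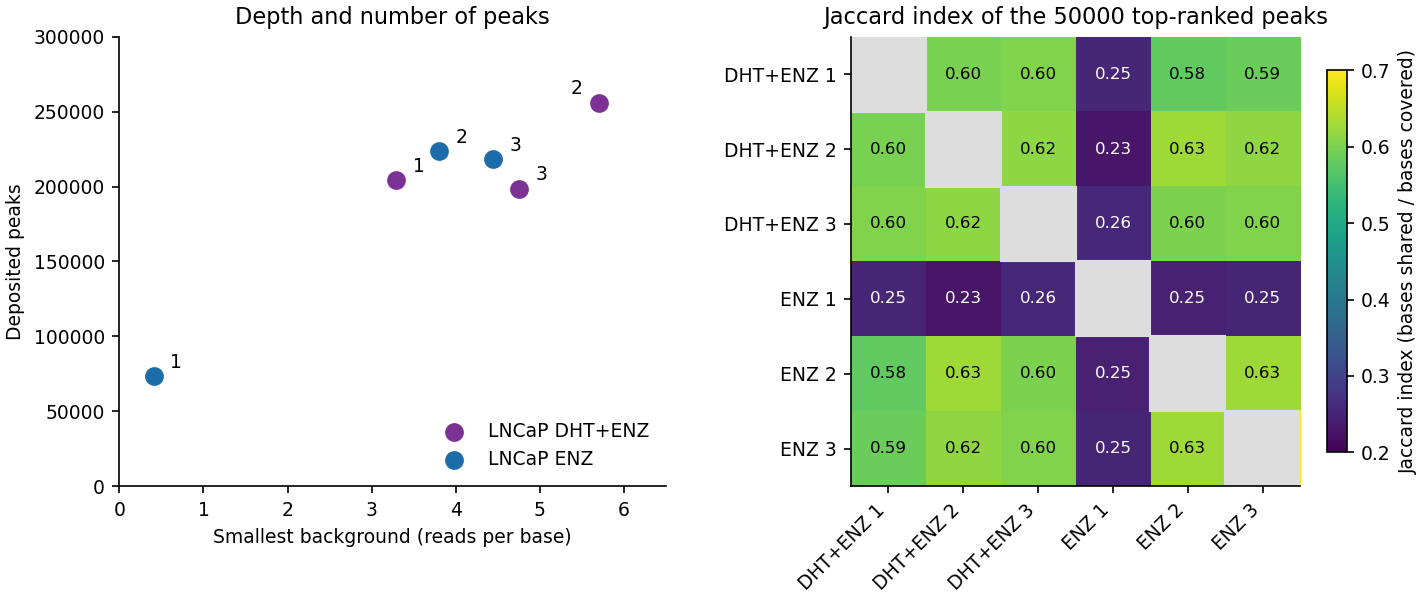
The 6 libraries by genome-wide background (reads per base, horizontal) and number of deposited peaks (vertical), with the replicate number beside each point, and the Jaccard index of the 50000 top-ranked peaks of each pair of libraries. ENZ replicate 1 lies at 0.41 reads per base with 73254 peaks, and its indices are 0.23 to 0.26, against 0.58 to 0.63 for all other pairs.

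The numbers of peaks did not separate the treatments. DHT+ENZ libraries held 204053, 256014 and 198464 peaks and ENZ libraries 73254, 223452 and 218039. The mean was higher by 47929 peaks with DHT+ENZ (exact permutation p = 0.6), the groups overlapped, and without ENZ replicate 1 the difference was -1235. Consensus regions, those with a peak in at least 2 of 3 libraries, numbered 179357 with DHT+ENZ and 157681 with ENZ. Of these, 22.1% with DHT+ENZ and 10.9% with ENZ overlapped no consensus region of the other group, a difference of 11.2 percentage points (exact permutation p = 0.7). This difference was negative when any one DHT+ENZ library was left out (-11.3 to -1.70 percentage points). A group left with 2 libraries then needed a peak in both, while the other group still needed 2 of 3. The DHT+ENZ consensus fell to between 137772 and 153578 regions, so the change of sign cannot be told apart from the unequal rule.

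In the deeper libraries the separated regions differed in the rank of a peak and rarely in its presence. Of the 922 regions called with DHT+ENZ only, 920 (99.8%) had a lower-ranked peak in both ENZ replicates 2 and 3, against 89.2% of all regions with a peak of any rank in both. ENZ replicate 1 had a peak of any rank in 134 of the 922 (14.5%), against 64.8% of all regions. Its top-ranked peaks alone called 57.6% of all regions. The 922 were chosen to have none of these peaks, so a low share in this library follows from the choice. All 265 regions called with ENZ only had a lower-ranked peak in each DHT+ENZ library, where 88.0% of all regions had one. In the 922 regions the median percentile of −log10 p within a list was 83.5 with DHT+ENZ and 67.8 with ENZ, against 80.6 and 75.9 over all regions. The ENZ value takes in ENZ replicate 1 where it had a peak. The 922 were chosen by this rank, so a wider gap than over all regions follows from the choice. Their median length was 451 bp, against 366 bp for regions called with ENZ only and 392 bp for all regions. They lay on all chromosomes, from 0.475% of the regions of chromosome 19 (9 regions) to 1.70% of those of chromosome 18 (35 regions). A shift of whole chromosome segments was not detected: of 307 windows of 10 Mb, none differed in its share of top-ranked peaks (0% called in either direction by limma with Benjamini-Hochberg adjustment; 14 had an unadjusted p under 0.05).

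Among the regions called with DHT+ENZ only, the 6 with the highest percentiles lay on chromosomes 10, 12, 4, 3, 5 and 1. At chr10:69716213-69716960 the fold enrichment over the expected pileup, as deposited, was 8.10, 7.39 and 6.35 with DHT+ENZ and 3.82, 5.44 and 4.50 with ENZ. At chr12:111505320-111505755 it was 10.1, 8.35 and 7.62 with DHT+ENZ and 3.94, 5.88 and 4.33 with ENZ. In both regions every DHT+ENZ library exceeded every ENZ library, but these libraries chose the regions. The libraries with DMSO, at 7.19, 8.19 and 6.28 in the first and 8.22, 10.1 and 6.93 in the second, lay in or close to the range of DHT+ENZ.

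The next regions had no peak in ENZ replicate 1. At chr3:188409991-188410329 the fold enrichment was 8.74, 6.94 and 6.94 with DHT+ENZ and 4.39 and 4.27 in ENZ replicates 2 and 3. At chr5:142132772-142133255 it was 8.67, 7.40 and 7.39 with DHT+ENZ and 4.46 and 5.10 in the same ENZ replicates. In RES-A this region was also higher with DHT+ENZ (9.69, 9.46 and 8.36) than with ENZ (5.77, 6.77 and 7.46), with no overlap. At chr1:180497865-180498421 the DHT+ENZ libraries varied more, with 9.64, 6.17 and 9.52, and the lowest of them was close to ENZ replicate 2 (6.13; replicate 3 was at 4.34). The region on chromosome 4, chr4:79026323-79026777, is described below with the regions that passed a test.

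The opposite pattern was seen at 6 named regions. At chr22:35848413-35848865 the fold enrichment was 9.14, 9.38 and 7.34 with ENZ, against 5.82, 5.97 and 4.52 with DHT+ENZ. At chr2:236079600-236079873 it was 8.53, 7.92 and 7.16 with ENZ, against 4.42, 4.77 and 3.65 with DHT+ENZ. In these and in chr13:27745937-27746302, chr2:7006605-7006940, chr9:132346322-132346690 and chr14:24905943-24906224, every ENZ library exceeded every DHT+ENZ library. The 6 regions were chosen from these libraries, ENZ replicate 1 included, so the separation is no independent support. Deposited fold enrichment was not adjusted for depth. In RES-A the 2 groups overlapped in 4 of the 6 regions, and every ENZ library exceeded every DHT+ENZ library in the pair on chromosome 2.

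The separated regions were then looked up in the 18 libraries that the comparison did not use. Of the 922 regions called with DHT+ENZ only, the parental DHT libraries called 67.2%, 83.5% and 83.2%, and the parental DMSO libraries 55.0%, 60.0% and 47.1%. Over all 85235 regions the same libraries called 47.0%, 54.0% and 54.2% (DHT) and 56.2%, 57.3% and 54.4% (DMSO). Thus the DHT libraries called these regions more often than regions in general. The DMSO library with 60.0% lay above its share of all regions (57.3%). Those with 55.0% and 47.1% lay below theirs (56.2% and 54.4%). All regions include 15733 that ENZ replicate 1 alone called among the compared libraries, and none of these could be among the 922. How far they shift the shares of all regions was not tested, so whether DMSO libraries called the 922 about as often is undecided. For the 265 regions called with ENZ only the order of DHT and DMSO was the reverse, with 28.3%, 22.3% and 24.5% in the DHT libraries and 51.3%, 52.8% and 52.1% in the DMSO libraries. DHT replicate 1 was shallow as well, with 82224 peaks and a background of 0.74 reads per base.

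Counted by region, 534 of the 922 (57.9%) were called by more DHT than DMSO libraries and 137 (14.9%) by fewer, against 17.5% and 26.6% of all regions. Among the 265 regions, 40 (15.1%) were called by more and 158 (59.6%) by fewer. The sets formed without ENZ replicate 1 gave 52.6% and 17.6% for the 1248 regions called with DHT+ENZ only, and 14.6% and 54.5% for the 1019 called with ENZ only. ENZ replicate 1 called 26.1% of the former and 26.0% of the latter, against 57.6% of all regions. It thus called both sets about equally often, and less often than regions in general. All regions include 15733 that it alone called among the 6 libraries. None of these could enter either set, so part of the lower share follows from the choice. This library was not used to choose these larger sets, but its peaks were merged into the regions.

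In RES-A the same 922 regions were called less often. The RES-A ENZ libraries called 18.5%, 18.4% and 18.2% of them and the RES-A DHT+ENZ libraries 32.6%, 31.7% and 29.6%, against 46.7% to 48.2% of all regions in these 6 libraries. All 3 RES-A libraries with DHT+ENZ thus exceeded all 3 with ENZ. By region, 248 (26.9%) were called by more RES-A libraries with DHT+ENZ than with ENZ and 50 (5.42%) by fewer, against 11.1% and 10.1% of all regions. Without the antagonist the contrast was wider: 406 regions (44.0%) were called by more RES-A libraries with DHT than with DMSO and 55 (5.97%) by fewer, against 13.2% and 14.4% of all regions. The regions were chosen from the values of the parental libraries, and these counts are given without a test.

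**Figure D2:**
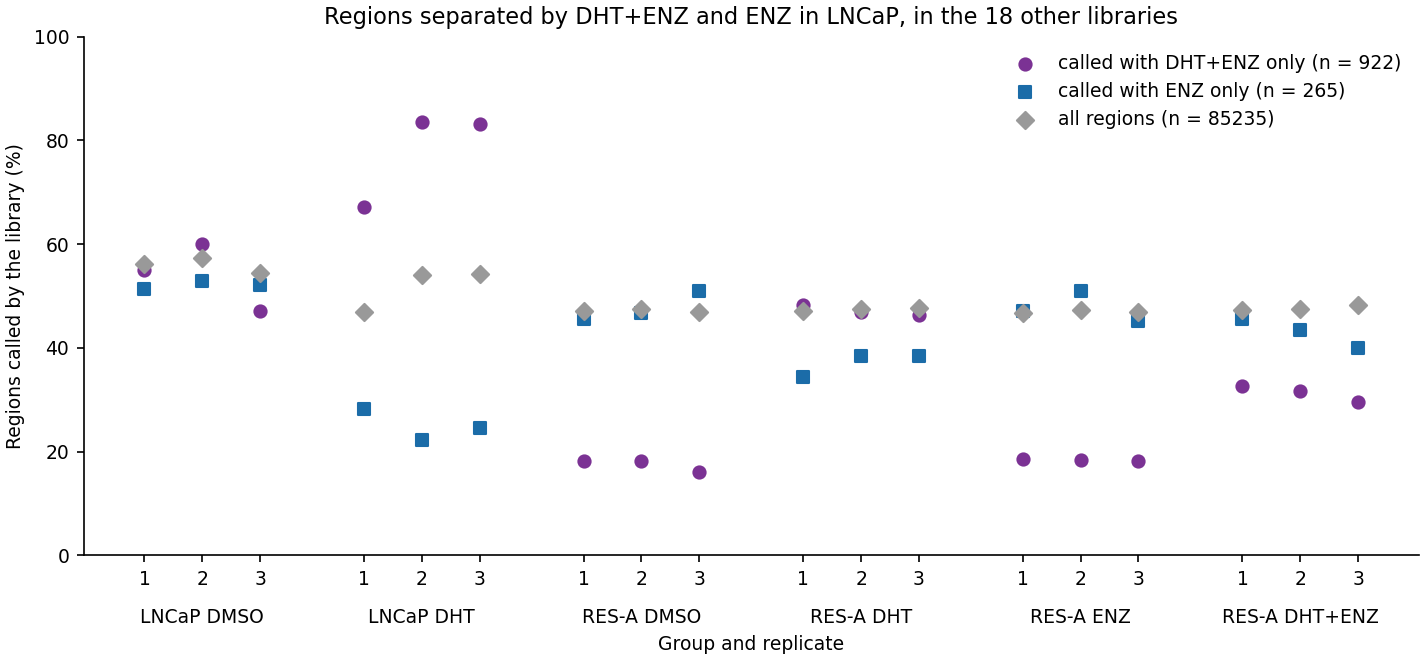
Share of 3 sets of regions (%, vertical) called by each of the 18 libraries outside the comparison, by group and replicate (horizontal): the 922 regions called with DHT+ENZ only (circles), the 265 called with ENZ only (squares) and all 85235 regions (diamonds). In the parental DHT libraries the circles lie at 67.2% to 83.5% and the squares at 22.3% to 28.3%, while in the parental DMSO libraries both lie between 47.1% and 60.0%.

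Peak height was compared next in regions that had a peak in every library. The authors' fold enrichment was put on the log2 scale, quantile normalised and tested with limma. Among 48159 regions with a peak in all 6 libraries, none passed an adjusted p of 0.05 (0% called higher and 0% lower; smallest Benjamini-Hochberg adjusted p = 0.874, limma), and 2158 had an unadjusted p under 0.05. The regions with the smallest p, none of which passed, were chr6:36317006-36317466, chr12:111505320-111505759 and chrX:129331461-129331931, with log2 differences of 0.92, 0.96 and 0.86 (DHT+ENZ minus ENZ), and chr7:129242056-129242402, chr11:45183360-45183716 and chr2:236079600-236079873, with -0.81, -0.67 and -0.87. At the region on chromosome 6 the fold enrichment was 11.4, 10.9 and 9.73 with DHT+ENZ and 4.27, 6.88 and 6.61 with ENZ. Across these regions the log2 fold enrichment of ENZ replicate 1 had a correlation of 0.45 to 0.48 with the other libraries, which had 0.83 to 0.88 with each other.

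Without ENZ replicate 1, 43 regions were higher with DHT+ENZ and none was lower. This fit of 3 against 2 libraries covered 118172 regions, and 0.0364% of them were called higher and 0% lower (adjusted p under 0.05, limma). With the replicate number as a block, 26 were called higher and 1 lower. The 43 log2 differences ran from 0.70 to 1.31, with a median of 0.95, and in all 43 regions each DHT+ENZ library exceeded both ENZ libraries in deposited fold enrichment. The same 5 libraries chose the regions, so neither this separation nor the levels given next are independent support. The median over regions of the mean fold enrichment was 8.36 with DHT+ENZ and 4.60 with ENZ. They lay on 16 chromosomes. ENZ replicate 1, left out of the fit, had a peak in 15 of the 43 regions. With that library included, these 15 had a median log2 difference of 0.75 and none passed the adjusted threshold; the 5 libraries that chose them are part of that fit, so their direction in it is no independent support. Of the 43, 25 were among the regions called in 3 of 3 DHT+ENZ and 0 of 2 ENZ libraries, a set drawn from the same libraries.

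The smallest p belonged to chr4:79026323-79026777 in this fit. Its fold enrichment was 11.5, 9.25 and 8.52 with DHT+ENZ and 5.14 and 4.59 in ENZ replicates 2 and 3, a log2 difference of 1.11 ± 0.15 (SE; limma adjusted p = 0.0067). The DHT libraries reached 10.6, 11.9 and 11.1 and the DMSO libraries 8.41, 8.90 and 7.31, so that both ENZ libraries were below those of the other treatments, while DHT and DHT+ENZ overlapped. In RES-A the region was called weakly, with a fold enrichment of 3.85 to 4.62 with DHT, 3.42 in 1 library with DHT+ENZ and no peak with DMSO or ENZ.

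Next in order was chr17:64965005-64965429, with 12.6, 7.76 and 8.69 with DHT+ENZ and 4.17 and 4.77 with ENZ (log2 difference 1.18 ± 0.18, SE; limma adjusted p = 0.0237). In contrast to the region on chromosome 4 it was also high in RES-A with DHT+ENZ (10.7, 8.95 and 6.72), where 1 ENZ library had a peak, at 3.36. At chrX:46487143-46487563 the fold enrichment was 8.15, 6.86 and 6.43 with DHT+ENZ and 3.13 and 3.30 with ENZ. RES-A had 7.51, 6.58 and 5.67 with DHT+ENZ and, with ENZ, 2.74 and 4.20 in the 2 libraries with a peak.

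At chr8:49342822-49343070 the fold enrichment was 7.45, 6.26 and 6.43 with DHT+ENZ and 2.71 and 3.12 with ENZ, the largest log2 difference of the 6 regions named here, 1.26 ± 0.20 (SE; limma adjusted p = 0.0237). No RES-A library with ENZ or DHT+ENZ had a peak there. At chr17:284353-284846 the values were 9.78, 9.40 and 8.83 with DHT+ENZ and 5.63 and 5.32 with ENZ, and at chr6:44607884-44608370 they were 9.55, 8.35 and 7.12 with DHT+ENZ and 4.79 and 4.41 with ENZ. In none of these 6 regions did DHT+ENZ overlap with ENZ replicates 2 and 3, but these libraries chose the regions. None of the 6 had a peak in ENZ replicate 1. DMSO libraries were above both ENZ libraries throughout, for instance 8.38, 7.54 and 5.76 on chromosome 8.

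**Figure D3:**
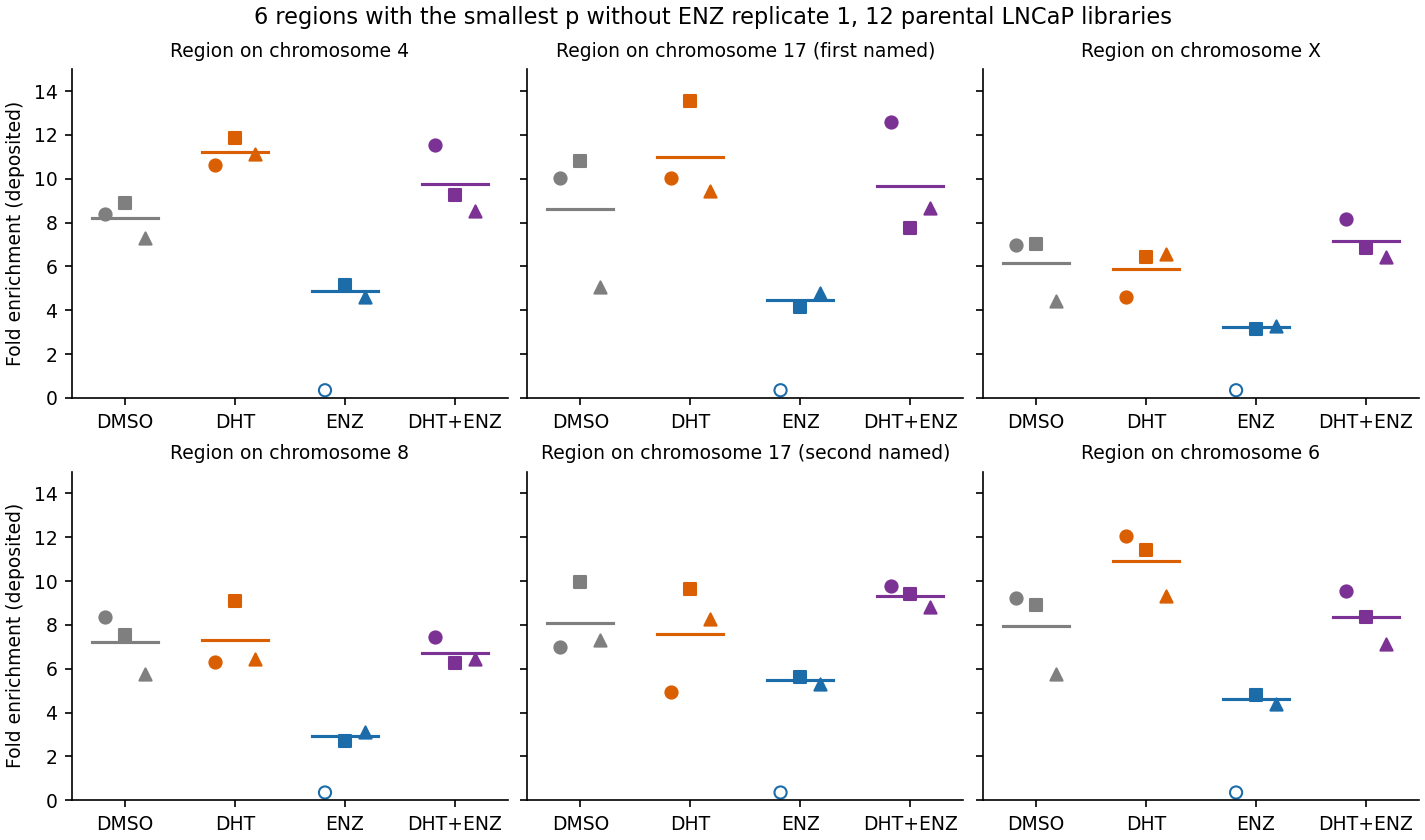
Deposited fold enrichment (vertical) of the 6 regions with the smallest p without ENZ replicate 1, in the 12 parental libraries by treatment (horizontal). Circles, squares and triangles are replicates 1, 2 and 3, lines are means over libraries with a peak, and an open circle at the foot marks ENZ replicate 1, which had no peak and so no value. In each panel the filled ENZ points lie below all DHT+ENZ points, and these points chose the regions.

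Parental and RES-A libraries outside the comparison gave values for part of the 43 regions. In a fit of the 10 parental libraries without the shallow ENZ replicate 1 and DHT replicate 1, 41 of the 43 overlapped a region with a peak in every library. The difference DHT minus DMSO, which shares no library with DHT+ENZ minus ENZ, was positive in all 41, with a median log2 value of 0.45 (interquartile range 0.28 to 0.69). Over all 90373 regions it was positive in 49.3% and its median was 0.00. Of the 41, 9 were called higher with DHT, against 0.601% of all 90373 regions. The median normalised fold enrichment of the 41 was 10.4 and 9.95 in the DHT libraries, 9.42, 8.37 and 8.29 with DHT+ENZ. It was 7.41, 7.22 and 7.04 in the DMSO libraries and 4.45 and 4.85 in the ENZ libraries. The regions were chosen for high values with DHT+ENZ and low values with ENZ, so the places of these groups in the order follow from the choice, and the step from DMSO to DHT is the one it did not use. In RES-A, 16 of the 43 had a peak in every library, all 16 were higher with DHT+ENZ than with ENZ, and 12 of them were called (median log2 difference 0.71). Over all 84563 regions of that fit 49.0% were higher in RES-A, with a median of 0.00, and 0.425% were called higher.

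The question was then turned round, starting from regions that responded to DHT without the antagonist. In the same fit, 543 regions (0.601%) were called higher and 360 (0.398%) lower with DHT than with DMSO. These calls depended on leaving out the shallow libraries. The fit of all 12 parental libraries called 0 of 32300 regions (0%) in either direction for DHT minus DMSO, with 3807 at an unadjusted p under 0.05 (limma), and leaving out DHT replicate 1 alone also gave 0 and 0. Leaving out ENZ replicate 1 alone gave 478 higher and 248 lower. The difference DHT+ENZ minus ENZ was not used to choose the 543 and 360 regions, although each needed a peak in every library and the fit pooled the spread over all 4 groups. Of the 543 regions, 500 (92.1%) were higher with DHT+ENZ than with ENZ, with a median log2 difference of 0.35 (interquartile range 0.17 to 0.51). Of all 90373 regions, 48.4% were higher, with a median of -0.01. Of the 360 regions that were lower with DHT, 83 (23.1%) were higher with DHT+ENZ, and the median difference was -0.11 (interquartile range -0.25 to -0.01).

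Library medians gave the levels by treatment. In the 543 regions the median normalised fold enrichment was 4.41, 4.65 and 4.23 with DMSO and 8.30 and 8.23 with DHT. In the presence of the antagonist it was 4.20 and 4.46 without DHT and 5.89, 5.44 and 5.58 with DHT. Each DHT+ENZ library thus lay above both ENZ libraries and below both DHT libraries, and the ENZ libraries overlapped those with DMSO. The DMSO and DHT values chose the 543 and the 360 regions, so places relative to these 2 groups partly follow from the choice. The step from ENZ to DHT+ENZ is the one it did not use. For the 360 regions lower with DHT the DMSO libraries had medians of 8.63, 8.31 and 8.53 and the DHT libraries 4.98 and 4.78. The ENZ libraries had 8.24 and 7.70, and the DHT+ENZ libraries 7.29, 7.42 and 7.15. Here the DHT+ENZ libraries lay just below those with ENZ.

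**Figure D4:**
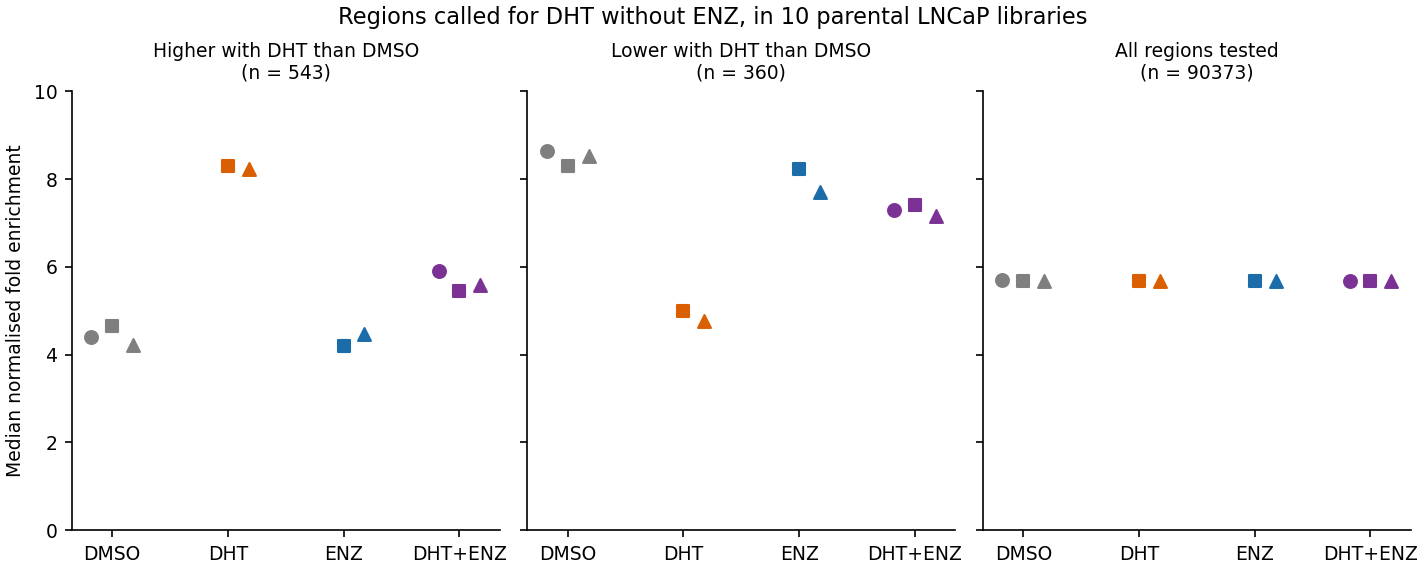
Median normalised fold enrichment (vertical) of the 543 regions higher and the 360 regions lower with DHT than with DMSO, and of all 90373 regions tested, in 10 parental libraries by treatment (horizontal). Circles, squares and triangles are replicates 1, 2 and 3. The DMSO and DHT points chose the regions; among the others, DHT+ENZ lies at 5.44 to 5.89 and ENZ at 4.20 to 4.46 in the first panel.

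Few of the DHT-responsive regions passed a test of their own with ENZ. In this fit, 46 regions (0.0509%) were called higher and none (0%) lower with DHT+ENZ than with ENZ, and 9 of the 46 were among the 543. The number depended on the fit: leaving out ENZ replicate 1 alone gave 2 higher and 0 lower of 54286 regions. The median difference without ENZ in the 543 regions was 0.85, but this value chose them, which tends to raise it. How much of its distance from 0.35 stems from the choice was not tested. Whether the effect of DHT differed with ENZ was tested as an interaction. None of 90373 regions was called (smallest limma adjusted p = 0.63; 5232 with an unadjusted p under 0.05; median SE 0.27 on the log2 scale), and none of 32300 in the fit of all 12 parental libraries (0% called in either direction; 1877 with an unadjusted p under 0.05). A difference between the effects with and without ENZ was therefore not detectable region by region at this number of libraries. Across the 90373 regions, which are not independent, the 2 differences had a Pearson correlation of 0.33, and across the 32300 regions of the fit with both shallow libraries it was 0.14.

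**Figure D5:**
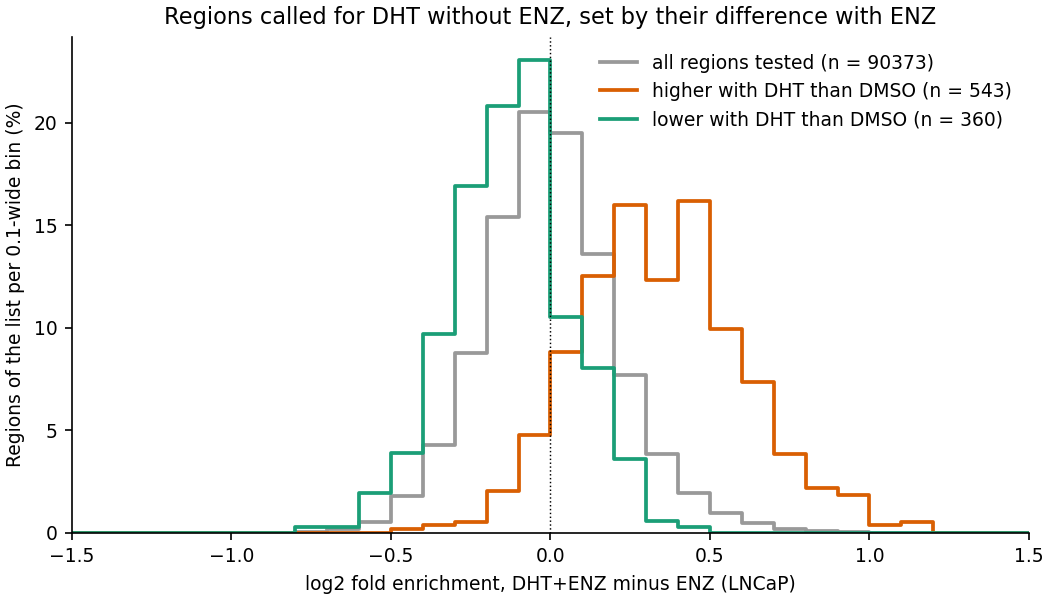
Distribution of the log2 difference DHT+ENZ minus ENZ in parental LNCaP (horizontal; percentage of each list per bin of 0.1, vertical) for the 543 regions higher with DHT than with DMSO, the 360 lower with DHT, and all 90373 regions. The first list has its median at 0.35 and the second at -0.11, beside -0.01 for all regions.

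The same contrast, DHT+ENZ minus ENZ, had more calls in RES-A, in numbers that depended on the fit. With all 12 libraries of both sublines, 15 of 42200 regions (0.0355%) were called higher and 0 (0%) lower in RES-A (limma; 1713 with an unadjusted p under 0.05), and leaving out 1 RES-A library at a time gave 0 to 7 higher and 0 lower. Median centring gave 117 higher and 1 lower. In a fit of both sublines without the shallow parental library, 359 of 84563 regions (0.425%) were called higher and 26 (0.0307%) lower in RES-A, and 4 (0.00473%) and 1 (0.00118%) in LNCaP, where only 2 ENZ libraries remained. Of the 359 regions, 343 (95.5%) were also higher with DHT+ENZ in LNCaP, with a median log2 difference of 0.38 (interquartile range 0.21 to 0.55), against 49.1% and a median of 0.00 over all regions. In these regions the median normalised fold enrichment in LNCaP was 9.23, 8.76 and 8.81 with DHT+ENZ and 6.64 and 6.88 with ENZ. RES-A had 8.05, 7.88 and 7.84 with DHT+ENZ and 4.45, 4.35 and 4.22 with ENZ, the values that chose the regions. Of the 26 regions lower in RES-A, 10 were higher and 16 lower in LNCaP, with a median of -0.02. No region was called in the test of a difference between the sublines (0% in either direction of 42200 regions with all 12 libraries; 1615 with an unadjusted p under 0.05; limma). Without ENZ replicate 1 none of 84563 was called, with 4123 at an unadjusted p under 0.05.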

How the data were processed

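FAIRE-seq DNA had been sequenced as single-end reads. According to the labels and the study's methods, the authors aligned reads to hg19 with BWA 0.7.8-r455, used Picard 1.118 to mark duplicates and ran MACS2 2.1.0 on every library by itself; its options and any control library are not given in the sources used here. The deposited lists hold, per peak, the pileup (an unscaled signal), −log10 p and q values, and a fold enrichment (a ratio over the expected pileup). All 24 were used as deposited. For 15 of 24 chromosomes peaks lay beyond the GRCh38 end, so genes and sequences were not analysed here. Relative depth, in place of read totals, is the smallest (pileup + 1) / fold − 1 of a library, which assumes that the peak caller added 1.

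The comparison, regions and lists were chosen with earlier results of these data known. Peaks were ranked by −log10 p, and merged at 1 bp overlap. Fold enrichment was tested as log2 of the highest peak of a region after quantile normalisation (limma 3.58.1 in R 4.3.3, lmFit and eBayes with trend, Benjamini-Hochberg, threshold 0.05), in regions with a peak in every library, so regions without a peak in a group were left out. Window shares had 0.5 peaks added before log2, and windows needed a mean of 20 peaks. Single values per library were tested by exact two-sided permutation over 20 assignments. The scripts were tested on simulated data. For limma these had shifts larger than the differences given here and a spread taken without ENZ replicate 1. Recovery of smaller differences was not tested. Named were the 6 separated regions per direction with the highest mean percentile of −log10 p, none of which was free of peaks in the other group, and per direction the 6 called regions, or 3 where none was called, with the smallest p. Alternatives included stricter q, autosomes, other numbers of peaks, tiles, other normalisation, library weights, background as a covariate, leaving out each library, and a replicate block.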

Additional observations from a re-analysis of the deposited data

How the results depend on the processing

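ENZ replicate 1 limited this comparison. Leaving out each library in turn gave differences in peak number of -1235 to 73864, in unique share of -11.3 to 68.3 percentage points, 1248 to 1875 regions called with DHT+ENZ only, 504 to 1019 with ENZ only, and 0 to 43 regions called higher and 0 lower by fold enrichment; the negative peak difference and the 43 regions came from leaving out ENZ replicate 1 (the cause was not tested). For unique share and separated regions, a group left with 2 libraries needed a peak in both. The other group kept its rule, so these ranges also hold the change of rule. Separated regions numbered 574 and 172 with 25000 top-ranked peaks, 2554 and 202 with all deposited peaks, and 1920 and 353 with 500-bp tiles, DHT+ENZ only first. With all deposited peaks, 8 of the 12 named separated regions had no difference left in the number of libraries with a peak. With all deposited peaks and without ENZ replicate 1, chosen after seeing the data, they were 2699 and 4836. Without ENZ replicate 1, median centring gave 49 regions higher and 0 lower. No window and no interaction was called under any alternative run, and none of the regions named reversed. Of the alternative values of the shared regions, 105 kept their side of the threshold and 7 passed it, all 7 without ENZ replicate 1. For the named separated regions, 63 alternative values kept the difference in the number of calling libraries and 57 did not. Leaving out a library that called such a region lowers this difference by itself. Same-numbered libraries had correlations of 0.09, 0.13 and 0.01 between their deviations from group means, and not every library had its highest with its own number, so the numbers were not taken to pair them. With the replicate block, p was 0.5 for peak number, 0.75 for unique share and 0.25 for library similarity (exact, the smallest possible is 0.25), limma called 0 of 48159 regions, and without ENZ replicate 1 the block gave 26 higher and 1 lower. Depth limits the lists: a region without a peak has no value here. The block and median centring without ENZ replicate 1, and the fit of 10 parental libraries, were also chosen after seeing the data.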
